A study of Homo sapiens with 2 samples.

Results

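The drug metabolising cytochrome P450 genes of families CYP2, CYP3 and CYP4, the UDP-glucuronosyltransferase (UGT) genes and the cytosolic sulfotransferase (SULT) genes were read out in HepG2 cells, 40 genes in all, 12 of CYP2, 4 of CYP3, 11 of CYP4, 8 of UGT and 5 of SULT. The genes were taken by name, and a probe was assigned to a gene when its RefSeq transcript belonged to it, which gave a probe for 36 of the 40, out of 20490 genes with a named probe. CYP2A6, UGT1A1, UGT2B17 and SULT1A1 had no matched probe and were left aside. The cells, HepG2, are an immortal hepatoma line from 1 tumour and not liver tissue. One culture received hawk tea extract (HTE), an ethanol extract dissolved in dimethyl sulfoxide (DMSO), for 24 h, at 200 μg per mL in the sample labels, while the study's text names a higher dose. The other culture received DMSO alone for 24 h. Both were grown in the same serum-containing medium, and the RNA of each was hybridised to 1 one-colour (Cy3) Agilent human expression array on a shared slide. With 1 array per condition, no test between the conditions was possible, the spread between cultures is unknown, and array and treatment cannot be told apart.

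Drugs and other foreign compounds are first oxidised and then conjugated in hepatocytes. Cytochromes P450 of families CYP2 and CYP3 carry out most of the oxidation, while many CYP4 enzymes hydroxylate fatty acids and eicosanoids at the end of the chain. UGT enzymes then attach glucuronic acid and SULT enzymes attach sulfate, which makes the products water soluble for excretion. Several of these genes are induced by foreign compounds through the nuclear receptors PXR (NR1I2) and CAR (NR1I3). HepG2 cells are known to carry less of many of these enzymes than liver does.

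The values are processed signals, background-subtracted intensities of the scanner software. Ratios are log2 of HTE over DMSO after the 75th percentile of each array was subtracted, which lay at 4020.0 with DMSO and 3570 with HTE. This scaling adds 0.17 to each unscaled log2 ratio. The brightest probe stood for the gene, and a gene was measured when the software marked this probe as well above background on at least 1 array. The error given after a log2 ratio is that of the software's own error model for the spots used, and the spots of 688 probes printed at least 5 times had a median SD of 0.05 in this ratio. Different probes of the same gene had a median SD of 0.16. All 9 hepatocyte markers, ALB and APOA1 among them, were well above background on both arrays, with log2 ratios from -0.36 (FGB) to 0.21 (APOA2). Of the 11 markers of leukocytes, endothelium, fibroblasts and cholangiocytes, CD3E, CDH5 and COL1A2 were not well above background on either array and COL3A1 was well above background on the DMSO array only. The others were well above background on both arrays. PECAM1, an adhesion molecule of endothelium, had a log2 ratio of -1.82, VWF and COL1A1 had -0.63 each, and KRT7 had -0.31. SOX9 had 0.02, PTPRC 0.14 and CD68 0.46. The part of such genes in the results below was not tested.

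Of the 36 genes with a probe, 24 were measured, 23 of them on both arrays, and 12 were not well above background on either. Of these 24, CYP3A5, CYP3A7 and CYP4F2 were at least 2-fold higher after HTE, 3 genes in all. Among all 23752 genes and unnamed transcripts measured, 5.25% were at least 2-fold higher. No measured member was at least 2-fold lower, where 3.03% of all measured genes and transcripts were. The median log2 ratio of the 24 measured members was 0.29, that of all genes and transcripts was 0, and 18 of the 24 ratios were above 0. The interquartile range of all ratios lay between -0.28 and 0.27, and 13 members were above it, 10 inside it and 1 below it. These counts describe the 2 arrays and carry no test.

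The direction of small ratios depended on the scaling. With the 75th percentile, 63.4% of the genes and transcripts past 2-fold were higher after HTE, without any scaling 42.2%, and with each dim probe at its own value 50.4%. When the arrays were instead aligned on the E1A spike-in probes, which read RNA added in known amounts at labelling, the median of all genes and transcripts moved by -1.37 and 0.594% of those past 2-fold were higher. Each of the 8 spike-in probes used differed between the arrays, by 0.45 to 1.57 on the log2 scale. Under this scaling CYP3A5 (0.70), CYP3A7 (0.28) and CYP4F2 (0.01) were the 3 members above 0, and 14 of the 24 measured members were at least 2-fold lower. Of all 23752 genes and transcripts, 18562 were at least 2-fold lower under it. The measured members keep their order in every such scaling, since it adds 1 constant to each of their ratios. Genes and transcripts dim on 1 array have a bound that cannot cross 0, so not all of their ratios moved by this constant.

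**Figure D1:**
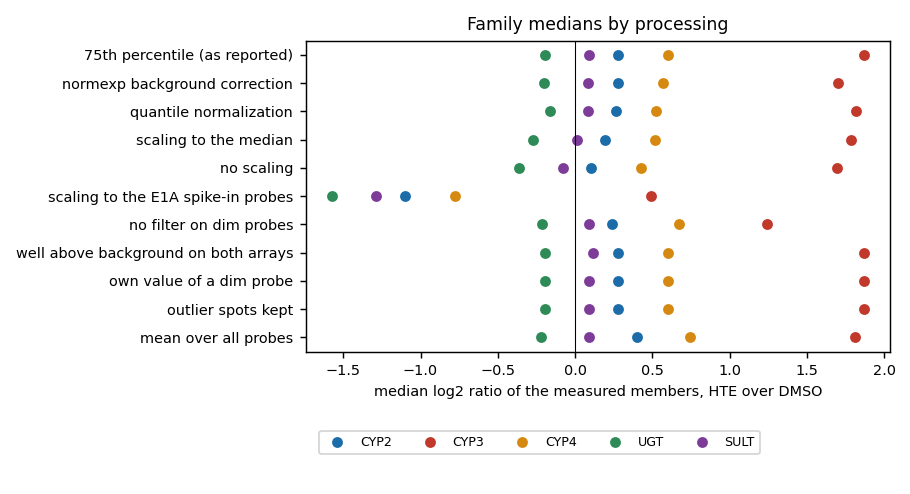
Median log2 ratio (HTE over DMSO) of the measured members of each family under each way of processing, with the reported 75th percentile scaling in the top row. CYP3 is the highest family and UGT the lowest in the reported scaling (1.87 and -0.19), and spike-in scaling moves all families to lower values (CYP3 0.49, UGT -1.57).

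**Figure D2:**
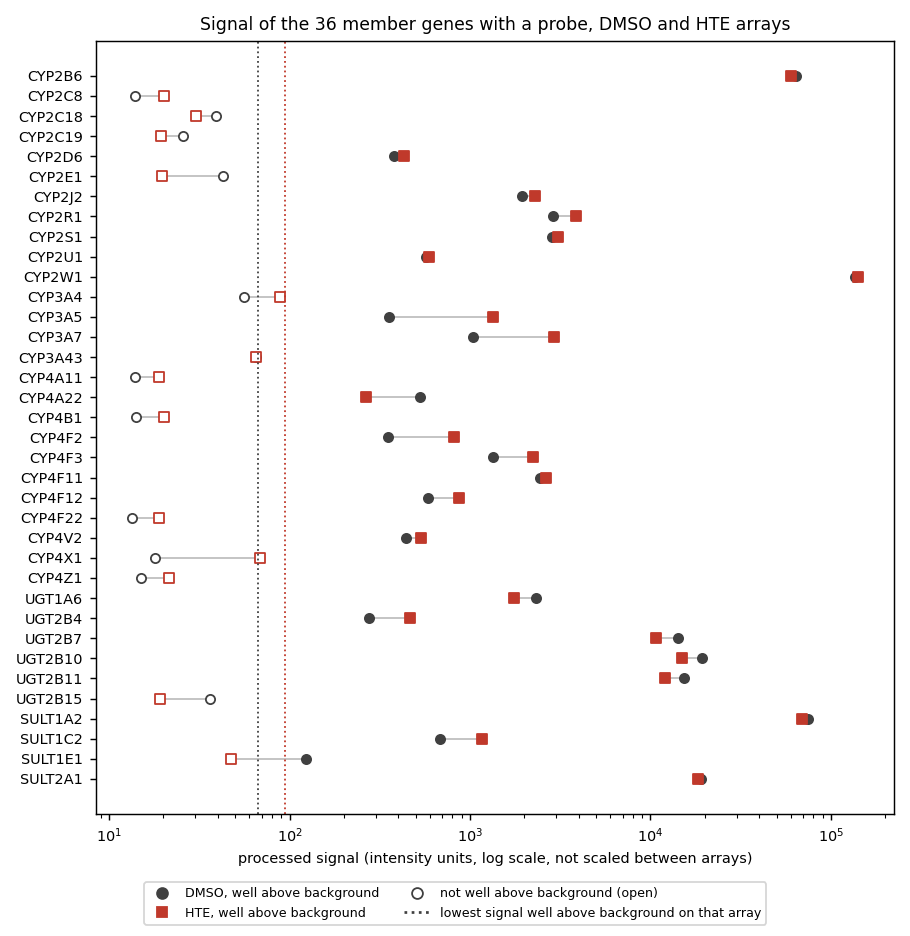
Processed signal (intensity units, log scale, before scaling) of the 36 genes with a probe on the DMSO array (circles) and the HTE array (squares), open where the probe was not well above background, with dotted lines at the dimmest probe that passed the background flag of each array (66.6 for DMSO, 94.6 for HTE). The pairs of CYP3A5, CYP3A7 and CYP4F2 are spread far apart, the 12 genes with 2 open symbols sit near the dotted lines or to their left, and signals of different probes should not be compared with each other.

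The CYP3A genes stood at the top of the members. CYP3A5, an enzyme that oxidises many drugs and steroids, had a signal of 357 in DMSO-treated cells and 1336 in HTE-treated cells. This is a 4.22-fold higher level after scaling, a log2 ratio of 2.08 with an error of 0.21. CYP3A7, the form that predominates in fetal liver, had a signal of 1039 with DMSO and 2913 with HTE. Its level was 3.16-fold higher, a log2 ratio of 1.66 with an error of 0.21. Both genes had a second probe that moved the same way. The second probe of CYP3A7 went from 582 to 1762, a log2 ratio of 1.77. The second probe of CYP3A5, designed on another transcript, was not well above background with DMSO (64.5) and was so with HTE (199), higher by at least 1.75 on the log2 scale. CYP3A4, the main drug oxidising P450 of adult liver, had signals of 55.9 and 88.1, and CYP3A43 of 64.9 and 65.6. Neither gene was well above background on either array, so they have no ratio here. The 4 genes are close relatives and lie in 1 stretch of chromosome 7, in the order CYP3A5, CYP3A7, CYP3A4 and CYP3A43, with 1 other annotated coding gene between CYP3A5 and CYP3A7. The sequences of the probes were not used here, and RNA of one gene that binds the probe of another cannot be told apart from its own.

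The promoter windows of the CYP3A genes are shown because these genes had the largest ratios among the members and because the known response element of PXR lies inside the window in CYP3A4. Each window spans the annotated start with most of its bases upstream, from RefSeq on GRCh38.p14. The capitals mark an everted repeat of a nuclear receptor hexamer, TGAACT followed by 6 bases and AGGTCA, with any base allowed at the second position. On the minus strand, CYP3A4 is at chr7:99784135-99784434, CYP3A5 at chr7:99679947-99680246 and CYP3A7 at chr7:99735147-99735446. On the plus strand, CYP3A43 is at chr7:99827763-99828062.
CYP3A4: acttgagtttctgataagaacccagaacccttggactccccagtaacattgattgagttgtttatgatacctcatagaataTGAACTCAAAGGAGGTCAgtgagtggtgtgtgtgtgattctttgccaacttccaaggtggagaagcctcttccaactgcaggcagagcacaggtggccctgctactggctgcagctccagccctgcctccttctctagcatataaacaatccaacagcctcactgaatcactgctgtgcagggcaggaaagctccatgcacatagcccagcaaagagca
CYP3A5: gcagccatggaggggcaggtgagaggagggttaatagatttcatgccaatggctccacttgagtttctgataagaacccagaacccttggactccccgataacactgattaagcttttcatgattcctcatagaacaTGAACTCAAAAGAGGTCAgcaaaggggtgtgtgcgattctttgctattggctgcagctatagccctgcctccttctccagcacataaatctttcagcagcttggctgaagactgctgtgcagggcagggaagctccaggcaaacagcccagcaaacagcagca
CYP3A7: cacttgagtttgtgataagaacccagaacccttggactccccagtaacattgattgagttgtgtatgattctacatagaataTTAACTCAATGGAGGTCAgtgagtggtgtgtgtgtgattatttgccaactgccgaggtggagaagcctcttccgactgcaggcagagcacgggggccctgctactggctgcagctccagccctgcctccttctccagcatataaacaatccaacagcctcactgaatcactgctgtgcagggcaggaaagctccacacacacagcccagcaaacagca
CYP3A43: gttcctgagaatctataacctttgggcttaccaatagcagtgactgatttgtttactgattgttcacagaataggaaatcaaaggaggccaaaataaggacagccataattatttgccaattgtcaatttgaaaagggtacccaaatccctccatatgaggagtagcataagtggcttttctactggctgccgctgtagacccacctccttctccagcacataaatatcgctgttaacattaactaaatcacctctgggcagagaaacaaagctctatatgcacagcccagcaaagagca

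With the exact letters, the repeat was found in 3 of 35116 promoter windows of the table (0.00854%, both strands searched), among them those of CYP3A4 and CYP3A5. The pattern is that of the known element of CYP3A4, so the match in CYP3A4 was given by the choice of pattern. The CYP3A genes are close relatives, so matches in the others are not independent of it. With any second base it was found in 10 windows (0.0285%), and CYP3A7 was then the third member. Relative to the start, the match runs from -169 to -152 in CYP3A4, from -113 to -96 in CYP3A5 and from -168 to -151 in CYP3A7, and CYP3A43 had no match in its window. The gene with the highest ratio, CYP3A5, and a gene not well above background, CYP3A4, both carry the exact repeat. The free second base was added after the sequence of CYP3A7 had been seen. Global alignment gave 93.7% identity between the windows of CYP3A4 and CYP3A7 over 301 columns, and 57.7% between those of CYP3A4 and CYP3A5 over 359 columns. Identity was counted over all columns, those with a gap included. Each window holds 300 bases, so many of the 359 columns hold a gap. The 57.7% is therefore not the share of identical bases among paired bases, which was not computed. Other letter patterns were searched on both strands in the 36 windows of the 31 members that the table holds. A direct repeat of AGNTCA with 3 bases between was in no member window and in 0.0598% of all windows, and with 4 bases between it was in no member window and in 0.111% of all. The core of the aryl hydrocarbon receptor element, GCGTG, was in 8 member windows, those of CYP2J2, CYP2U1, CYP2W1, CYP4F22, CYP4V2, CYP4X1, UGT1A6 and SULT2A1, and in 36.5% of all windows. The pattern CAAAGTCCA, a core of HNF4 sites, was in 4 member windows, those of CYP2A6, CYP2B6, CYP2C8 and CYP2R1, and in 0.384% of all. The single hexamer AGGTCA, which is part of the everted repeat and one form of the unit in the direct repeats, was in 13 member windows and in 13.8% of all. A match is a match of letters in this window alone.

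**Figure D3:**
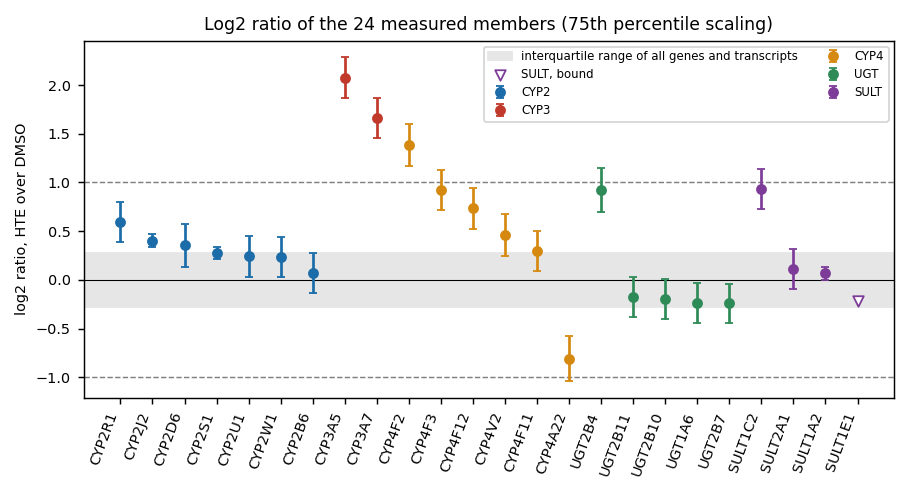
Log2 ratio of HTE over DMSO of the 24 measured members by family, with error bars of 1 error of the scanner software's model, dashed lines at 2-fold and a grey band over the interquartile range of all genes and transcripts (-0.28 to 0.27). CYP3A5, CYP3A7 and CYP4F2 lie above the upper dashed line, no gene lies below the lower one, and the open triangle of SULT1E1 is a bound with no error bar.

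Of the 11 CYP4 genes, 6 were measured, with a median log2 ratio of 0.60, which was -0.78 under spike-in scaling, and 5 of the 6 ratios were above 0. CYP4F2, which hydroxylates fatty acids, vitamin E and vitamin K, had a signal of 350.2 with DMSO and 813 with HTE, a log2 ratio of 1.39 with an error of 0.22. A second probe of CYP4F2 went from 333 to 521, a log2 ratio of 0.82, so the gene is past 2-fold by the first probe and not by the second. CYP4F3, the leukotriene B4 hydroxylase, had signals of 1340 and 2249, a log2 ratio of 0.92 with an error of 0.20. CYP4F12 had signals of 586 and 867, a log2 ratio of 0.74. CYP4F11 had 2430 and 2648, a log2 ratio of 0.29, whereas its dimmer probe went from 74.0 to 153 with a log2 ratio of 1.22. Each of the 4 measured CYP4F genes had a ratio above 0 with the 75th percentile, while under spike-in scaling CYP4F3, CYP4F11 and CYP4F12 were below 0. They lie on chromosome 19, CYP4F3 and CYP4F12 in a stretch with CYP4F22, which was not well above background, and CYP4F2 and CYP4F11 as direct neighbours in another. CYP4F8, a relative outside the members, had a log2 ratio of 0.68. CYP4V2, a fatty acid hydroxylase known for its part in a corneal and retinal dystrophy, had signals of 439 and 537, a log2 ratio of 0.46.

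CYP4A22, a relative of the fatty acid hydroxylase CYP4A11, was the only CYP4 gene with a lower level. Its signal was 527 with DMSO and 267 with HTE, 1.75-fold lower after scaling, a log2 ratio of -0.81 with an error of 0.23. Its 4 member neighbours on chromosome 1, CYP4A11, CYP4B1, CYP4X1 and CYP4Z1, were not well above background on either array. CYP4X1 had signals of 18.1 and 68.7, and no ratio is given because both are below the level at which the software separates signal from background. CYP4A11, whose transcript is close to that of CYP4A22, had signals of 13.9 and 18.9.

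Of the 12 CYP2 genes, 7 were measured on both arrays, none was past 2-fold, and the median log2 ratio was 0.28, which was -1.10 under spike-in scaling. All 7 ratios were above 0 with the 75th percentile, from 0.07 for CYP2B6 to 0.59 for CYP2R1, and CYP2B6 was below 0 with the median (-0.01), without scaling (-0.10) and with normexp (-0.01). CYP2R1, a vitamin D hydroxylase, had signals of 2898 and 3881, with an error of 0.20 on its ratio. CYP2J2, which makes epoxides from arachidonic acid, was read by 10 spots per array. Its mean signal was 1953 with DMSO and 2293 with HTE, a log2 ratio of 0.40 with an SD of 0.04 over the spots (0.32 to 0.45). CYP2S1 was also read by 10 spots, with mean signals of 2845 and 3060, a log2 ratio of 0.28 and an SD of 0.07 (0.15 to 0.36). These SDs describe the spots of 1 pair of arrays and leave out the cultures. CYP2D6, which oxidises many basic drugs, had signals of 379 and 430.1, a log2 ratio of 0.35. The ratios of CYP2U1 (signals of 568 and 596) and of CYP2W1 (135554 and 141448), an enzyme known from fetal and tumour tissue, were 0.24 and 0.23 and lay inside the interquartile range of all genes. CYP2B6, the classic target of CAR, had signals of 64439 and 60041, a log2 ratio of 0.07 with an error of 0.20. Its second probe went from 78.0 to 112, a log2 ratio of 0.69 with an error of 0.43, and the pseudogene CYP2B7P, close to it in sequence, cannot be told apart here. CYP2C8, CYP2C18, CYP2C19 and CYP2E1, known for drug and ethanol oxidation in liver, were not well above background on either array.

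Of the 8 UGT genes, 5 were measured on both arrays and 4 of them had ratios below 0, with a median of -0.19 that stayed below 0 under each scaling tried. UGT2B7, which conjugates morphine and many steroids, had signals of 14296 and 10732, a log2 ratio of -0.24. UGT2B10, which glucuronidates tertiary amines, had 19241 and 14943, a log2 ratio of -0.19. UGT2B11 had 15436 and 12102 at its brighter probe, a log2 ratio of -0.18, and -0.27 at the other probe. UGT1A6, which conjugates small phenols, had 2307 and 1743, a log2 ratio of -0.23, and -0.34 at its dimmer probe. All of these lie inside the interquartile range of all genes except that dimmer probe of UGT1A6, and each error is 0.20 or more, so each of the ratios at the brightest probes is within 2 errors of 0. UGT2B4, which conjugates bile acids, was the exception, except under spike-in scaling (-0.45). Its signal was 275 with DMSO and 464 with HTE, 1.90-fold higher after scaling, a log2 ratio of 0.92 with an error of 0.22. UGT2B4 lies in the same stretch of chromosome 4 as UGT2B7, UGT2B10, UGT2B11 and UGT2B15, the last of which was not well above background. UGT2B7, UGT2B10 and UGT2B11 are close in sequence, and UGT1A transcripts share their last exons, so the genes within these groups cannot be told apart here. The probe named UGT1A8, outside the members, had a log2 ratio of -0.14.

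Of the 5 SULT genes, 4 were measured, with a median log2 ratio of 0.09, which was 0.01 with the median, -0.08 without scaling and -1.29 under spike-in scaling. SULT1C2, which sulfates small phenols, had a signal of 686 with DMSO and 1162 with HTE, a log2 ratio of 0.93 with an error of 0.21, just under 2-fold, and 0.56 at its dimmer probe. SULT2A1, the sulfotransferase of DHEA and bile acids, had 19006 and 18257, a log2 ratio of 0.11. SULT1A2, a phenol sulfotransferase, was read by 9 usable spots with mean signals of 74268 and 69200, a log2 ratio of 0.07 with an SD of 0.08 over the spots. Its near copies, SULT1A1 among them, may contribute to this probe. SULT1E1, the estrogen sulfotransferase, was well above background with DMSO (124) and not with HTE (47.6). Against the dimmest probe that passed the background flag on the HTE array it was at least 1.16-fold lower by signal, a bound that leaves out the error. Its own log2 ratio, taken without this bound, was -1.21 with an error of 0.70, within 2 errors of 0.

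The 12 members not well above background had signals of 13.5 to 64.9 on the DMSO array and of 18.8 to 88.1 on the HTE array. Their scaled values differed by a median of 0.64 on the log2 scale, and those of all 20852 such probes by 0.66, while the lowest signal of such a probe was 13.1 on the DMSO array and 18.7 on the HTE array. No change is read from these differences. These genes were not detectable on these arrays, which does not show that they were silent.

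**Figure D4:**
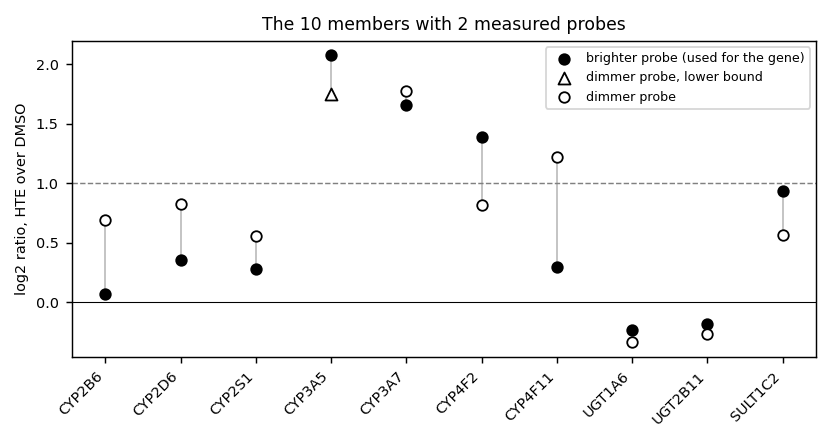
Log2 ratio of HTE over DMSO at the brighter probe (filled) and the dimmer probe (open, a triangle where it is a lower bound) of the 10 members with 2 measured probes, with a dashed line at 2-fold. Both probes of CYP3A5 and CYP3A7 lie above the line, CYP4F2 and CYP4F11 have 1 probe on each side, and the 2 probes have the same sign in all 10 genes.

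A second measured probe was found for 10 members, and in all 10 both probes had the same sign. The pairs differed by a median of 0.35 on the log2 scale, from 0.09 in UGT2B11 to 0.93 in CYP4F11. The pair of CYP3A5 entered with the lower bound of its second probe (1.75), so the difference within this pair is not known. CYP3A5 and CYP3A7 were the 2 genes with both probes past 2-fold. In CYP2B6, CYP2D6, CYP2S1, CYP3A7 and CYP4F11 the dimmer probe had the higher ratio, by 0.11 to 0.93. The median SD of replicate spots (0.05) is no yardstick for these differences, since most of these probes were read by 1 spot per array. The difference of 0.09 in UGT2B11 is smaller than the error of 0.20 at each of its probes. The 0.11 in CYP3A7 is likewise smaller than the error of 0.21 at each of its probes.

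The other genes of the pathway were described from lists. Of 21 receptors and transcription factors of these genes, all were measured, 12 had ratios above 0 and 9 below, with a median of 0.13. NR1I2, the receptor PXR, had signals of 3047 and 4192, a log2 ratio of 0.63, while NR1I3, the receptor CAR, had 3020.4 and 2690, a log2 ratio of 0.00396. RXRA, the partner of both, had -0.11. CEBPA, a hepatocyte transcription factor, had the lowest ratio, with signals of 27382 and 10849 and a log2 ratio of -1.16, and was the only gene of the list past 2-fold. NR0B2, the corepressor SHP, had the highest ratio of the list, 0.87. Under spike-in scaling CEBPA was -2.54 and NR0B2 -0.51. FOXA1 (-0.81), ONECUT1 (-0.77) and NR1H4, the bile acid receptor FXR (-0.85), also had lower levels, and HNF4A had 0.13. Among the 12 with ratios above 0 were also AHR, the aryl hydrocarbon receptor (0.81), CEBPB (0.65), VDR (0.56), PPARA (0.47) and FOXA2 (0.14).

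Of 7 electron donors of P450 enzymes, 6 were measured and none was past 2-fold, with ratios from -0.44 for CYB5B to 0.61 for CYB5R1, and POR had no matched probe. Under spike-in scaling CYB5B was -1.82 and CYB5R1 -0.77. CYB5A, the cytochrome b5 that supports CYP3A enzymes, had -0.02. Of 13 genes that supply UDP-glucuronic acid and active sulfate or remove the conjugates, 12 were measured and none was past 2-fold. Their median was 0.03, with the lowest ratio in SLC35D1, which carries UDP-glucuronic acid into the endoplasmic reticulum (-0.45), and 0.60 at the brightest probe of BPNT1, which breaks down a by-product of sulfation. BPNT1 had 0.12 at its other probe, 0.36 as the mean over its probes and 0.85 with outlier spots kept, and SLC35B3, which carries active sulfate into the Golgi, had 0.54. Under spike-in scaling SLC35D1 was -1.83 and BPNT1 -0.78. UGDH, the enzyme that makes UDP-glucuronic acid, had -0.21. Of 26 further genes of the CYP2, CYP4, UGT and SULT families, 9 were measured and 8 of their ratios were above 0, with a median of 0.48. SULT1C4, a relative of SULT1C2, had 0.83, and -0.55 under spike-in scaling. SULT6B1 was well above background on the HTE array only (36.7 and 121). Its log2 ratio, a lower bound, was 1.03 with an error of 0.72, within 2 errors of 0. Without SULT6B1 the median of these further genes was 0.45.

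CYP1A1, the P450 that the aryl hydrocarbon receptor induces, had signals of 1496 and 21534, a log2 ratio of 4.02, and 2.64 under spike-in scaling. Its relatives CYP1A2 and CYP1B1 had 0.24 and 0.46. The 3 members past 2-fold thus had smaller ratios than CYP1A1, and no test of a difference between these genes was possible.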

How the data were processed

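Total RNA of the DMSO-treated and the HTE-treated HepG2 culture was hybridised to 1 Agilent one-colour array each. The authors deposited the Feature Extraction output (version 10.7 per the labels, 11.5.1.1 per the file headers) with 62976 spots per array, and the values used were its background-subtracted processed signal intensities. Spots flagged as outliers and control spots were dropped, those of a probe were averaged, and log2 signals were scaled to the 75th percentile of each array. A probe dim on 1 array took the lowest signal well above background as a bound, or its own signal where that was higher. Probes were named through RefSeq transcripts (28146 of 50532). Well above background were 60.6% of the spots with DMSO and 56.6% with HTE, and the number of arrays limits the precision. With 1 array per condition no test between the conditions was run, and a gene past 2-fold was counted, with the counting code run beforehand on simulated ratios. All measured members were named, and of each other list the genes with the highest and lowest ratio, while other genes were chosen after their values were seen. The members and lists were chosen with earlier results of these data known. The alternatives were normexp (offset 50) and quantile normalization (limma 3.58.1, R 4.3.3), other scalings, filters, probes and cutoffs. Scripts ran on Python 3.11.15 with matplotlib 3.10.9, pandas 2.3.3 and numpy 2.4.6.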

Additional observations from a re-analysis of the deposited data

How the results depend on the processing

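No paired analysis was possible because each condition was measured on 1 array alone, so no array could be left out either. Of the measured members, 3 were past 2-fold higher and 0 lower under normexp, quantile, median and no scaling. Spike-in scaling gave 0 higher and 14 lower. The absence of a filter gave 4 higher and 1 lower out of 36 members. CYP4X1 was added from signals not well above background, and the lower one was SULT1E1 (-1.21). The own value of dim probes gave 3 higher and the same 1 lower. A cutoff of 1.5-fold gave 8 higher and 1 lower of the 24 measured. The share of all genes and transcripts past 1.5-fold was not computed, so nothing is read from these counts. The median of the members was 0.21 with median scaling, 0.11 without scaling, -1.09 with the spike-ins and 0.41 as a mean over all probes. For CYP2 these 4 settings gave 0.20, 0.11, -1.10 and 0.40, for CYP3 1.79, 1.70, 0.49 and 1.81, and for CYP4 0.52, 0.43, -0.78 and 0.75. The first 3 of them gave -0.27, -0.36 and -1.57 for UGT, and 0.011, -0.080 and -1.29 for SULT. CYP3 was 1.70 under normexp and 1.24 with no filter, and CYP4 was 0.53 under quantile normalization and 0.67 with no filter. For the measured members, the median, spike-in and absent scalings differ from the reported one by a constant, and the cause of the other differences was not tested. Among all 23752 genes and transcripts, 1248 were higher and 720 lower. The counts were 825 and 468 under normexp, 883 and 1209 without scaling, and 111 and 18562 with the spike-ins. With own values they were 1341 and 1320. The absence of a filter gave 2390 and 1868 out of 41127, a larger set. CYP4F2 was under 2-fold at its other probe (0.82) and CYP4F11 past it (1.22), an alternative chosen after seeing the data. Signal over background limits SULT1E1, the second probe of CYP3A5 and the 12 dim genes.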

Other observations

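Other enzymes of drug metabolism were read from the same arrays. Of 29 further phase I enzymes, 20 were measured and none was past 2-fold, with a median log2 ratio of 0.02. AOX1, an aldehyde oxidase, had the highest ratio (0.83) and EPHX2, an epoxide hydrolase, the lowest (-0.78). Under spike-in scaling AOX1 was -0.54 and EPHX2 -2.16. Of 13 further conjugating enzymes, 10 were measured, with a median of 0.17. BAAT, which joins bile acids to glycine or taurine, had a log2 ratio of 1.60, and 0.22 under spike-in scaling. NAT2, an N-acetyltransferase, was well above background with HTE (252.5) and not with DMSO (81.5). Its log2 ratio was 1.80 with an error of 0.46. This is its own ratio, since its DMSO signal exceeds that of the dimmest probe that passed the background flag (66.6). ACSM2B, a medium-chain acyl-CoA ligase, had the lowest ratio of these, -0.86. TIPARP, another target of the aryl hydrocarbon receptor, had 0.08.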
